A study of Homo sapiens with 8 samples.

Results

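Integrins and laminins are the cell-surface receptors and the basement membrane proteins through which cells hold on to their surroundings. They were examined in 8 one-colour Affymetrix human arrays of metastatic lymph nodes from mice, 4 given vehicle and 4 given doxycycline. Members were all genes of the array annotation with the symbol of an integrin alpha subunit, an integrin beta subunit or a laminin chain, each read by 1 probe set. They numbered 33 of the 17491 named genes: 8 laminin chains, 17 integrin subunits found mainly outside leukocytes and 8 subunits of leukocyte integrins, which were kept apart.

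The hosts were BALB/c nude mice, an athymic strain, and all of them bore SkMel147 tumours under the skin; SkMel147 is a line of human skin melanoma cells. Doxycycline or its vehicle was put in the drinking water once tumours reached about 750 mm3, the drug being the inducer of Omomyc in the melanoma cells. Omomyc is a dominant-negative protein that dimerizes with MYC and its partners and keeps MYC from its target genes. The nodes were taken 2 days after treatment and homogenized whole, so each sample was a mixture of host and tumour RNA. The probes are human, and how much of the host's mouse RNA they read was not measured. Fewer cells of a type cannot be told apart from less RNA per cell. The series' own description speaks of excised melanomas rather than of nodes, and the tissue given with each sample was followed. The labels give neither the age of the mice nor whether the SkMel147 line was a single clone. The labels call the samples biological replicas but do not say that each came from its own mouse, so the errors measure only the spread between these samples.

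An integrin is a pair of 1 alpha and 1 beta subunit that spans the membrane, binds matrix proteins or other cells outside, and couples to actin through talin and kindlin inside. A laminin is a trimer of an alpha, a beta and a gamma chain that forms the first sheet of a basement membrane. In melanoma, integrins that contain ITGAV and ITGB3 or ITGB1 are known for their part in invasion, and in lymph nodes laminins line vessels and the reticular fibre network.

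The arrays differed in ways that bear on these genes. Array medians lay between 5.07 and 5.12. Vehicle replicate 1 stood apart, with a mean correlation across genes of 0.941 with the other 7 arrays against 0.969 to 0.974 for each of those. The mean of the 9 measured melanoma markers was 5.10 to 5.39 with vehicle, lowest in vehicle replicate 1, and 5.35 to 5.40 with doxycycline. That array was the lowest for 3 of the 9 (MLANA, PMEL and S100B), against 28.8% of all genes. MLANA stood furthest, at 4.60 against 5.63 to 6.21 in the others. For MITF, TYR and TYRP1 that array lay above the mean of the other 7, by 0.07, 0.07 and 0.15. Of the 9, CSPG4, TYR and TYRP1 were among the dimmest 50% of genes. The lymphocyte markers were also dim, with 8 of 13 among the dimmest 50%. The summed level of a marker list is given as its mean per array. For skeletal muscle it was 5.76 to 6.30 with vehicle and 6.04 to 6.71 with doxycycline, and 10 of 10 markers had a difference above 0. For adipocytes it was 5.28 to 5.64 and 5.67 to 5.92, with 6 of 7 above 0. For endothelium it was 5.33 to 5.60 and 5.53 to 5.67, with 8 of 10 above 0. The count was 7 of 9 for melanoma, 9 of 13 for myeloid and 2 of 7 for keratinocyte and epithelium markers, against 55.5% of all genes. For lymphocyte markers it was 7 of 13, for general leukocyte markers 3 of 7 and for fibroblast and pericyte markers 5 of 8. For megakaryocyte and platelet markers it was 3 of 6, and for Schwann cell and nerve markers 1 of 3. Vehicle replicate 1 was the lowest array for 6 of the 10 muscle markers, and for 28.8% of all genes. The part of these tissues and cell types in the values that follow was not tested.

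The comparison of doxycycline with vehicle asks whether adhesion genes differed in the nodes after 2 days of the drug that induces Omomyc. No group had doxycycline without Omomyc, so effects of the drug itself cannot be told apart from those of Omomyc. Of the 33 members, 0 passed an adjusted p of 0.05 (limma, Benjamini-Hochberg over all 17491 genes), and the share over all genes was 0%. The members' adjusted p lay between 0.987 and 0.999. At an unadjusted limma p under 0.05 there was 1 member, LAMA1, or 3.03%, against 3.8% of all genes. Without vehicle replicate 1 the adjusted count was again 0, and 4 members had an unadjusted p under 0.05 (LAMA1, LAMC1, LAMC3 and ITGA6), against 4.91% of all genes. Differences are given in log2 units as doxycycline minus vehicle over 4 and 4 arrays, and their median standard error was 0.16 over the members and 0.15 over all genes. With doxycycline, 23 of 33 members (69.7%) had a difference above 0 against 55.5% of all genes. The median difference was 0.06 for the members and 0.02 for all genes. Without vehicle replicate 1 the shares above 0 were 60.6% and 50.8%, and the medians 0.02 and 0.00315.

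The laminin alpha chains carry the globular domains that cell receptors bind. LAMA1, the alpha chain of the laminin of early embryonic basement membranes, was the member that stood furthest from its error. Its values were 4.48, 4.64, 4.35 and 4.49 in vehicle replicates 1 to 4 and 4.75, 4.96, 5.13 and 4.94 in doxycycline replicates 1 to 4. The 4 doxycycline arrays were all above the 4 vehicle arrays, with a gap of 0.11 between the nearest. Groups did not overlap, in the direction of higher values with doxycycline, for 2 members (LAMA1 and ITGAE) and for 1.76% of all genes. In the direction of lower values they did not overlap for 0 members and 0.863% of all genes, which makes 2.62% of all genes in either direction. The LAMA1 difference was 0.46 ± 0.13 (SE), or 1.37-fold, with a 95% confidence interval from 0.18 to 0.73. It had the 15th smallest p of the 17491 genes, yet the adjusted limma p was 0.987. With each array left out in turn, the difference stayed between 0.39 and 0.52.

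Of the other alpha chains, LAMA2 and LAMA4 were measured and showed little distance between the groups. LAMA3 and LAMA5 were not among the named genes. LAMA2, the alpha chain of muscle and peripheral nerve, lay between 5.06 and 5.19 in all 8 arrays, the narrowest range of any member. LAMA4, the alpha chain of vessel walls and fat, lay between 7.94 and 8.47 with vehicle and between 8.09 and 8.44 with doxycycline, with its lowest value in vehicle replicate 1. For neither gene were the groups apart.

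The beta and gamma chains complete the trimer. The beta chain LAMB3 was not among the named genes. LAMC1, the gamma chain shared by most laminins, was at 8.09, 7.55, 7.38 and 8.01 in the vehicle arrays and at 7.76, 8.06, 8.20 and 8.09 in the doxycycline arrays. Vehicle replicates 1 and 4 fell among the doxycycline arrays, and replicates 2 and 3 below them. The LAMC1 difference was 0.27 ± 0.17 (SE), and 0.38 ± 0.17 (SE) without vehicle replicate 1 (limma adjusted p = 0.962). It was 0.14 without vehicle replicate 3. LAMC3, a gamma chain of skin and nerve, ran the other way. It was at 5.25, 5.87, 5.87 and 5.65 with vehicle and at 5.61, 5.35, 5.44 and 5.44 with doxycycline. Vehicle replicate 1 was the lowest of all 8 arrays, while the other 3 vehicle arrays were all above the 4 doxycycline arrays. The LAMC3 difference was -0.20 ± 0.15 (SE) and -0.33 ± 0.13 (SE) without vehicle replicate 1 (limma adjusted p = 0.962). It was -0.13 when either vehicle replicate 2 or 3 was left out. Without vehicle replicate 1 groups did not overlap, with lower values under doxycycline, for LAMC3 alone among the members and for 2.67% of all genes.

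LAMB1, the usual partner of LAMC1, was dim, at 2.86 to 3.54 over the 8 arrays, and was 1 of 6 members among the dimmest 25% of genes. Its difference was -0.08 ± 0.16 (SE) and turned to 0.02 when either vehicle replicate 1 or doxycycline replicate 1 was left out. LAMB2, the beta chain of the neuromuscular junction and the kidney filter, lay between 7.30 and 7.47 in all arrays. LAMB4 reached 6.04 in vehicle replicate 3, whereas the remaining 7 arrays ranged from 5.30 to 5.74. Over the 8 laminin chains, 4 differences were above 0 and 4 below 0 with the deposited values, against 3 above and 5 below under cyclic loess, where LAMB2 changed sign. The laminin median was 0.01, and it was -0.000994 with array medians centred and -0.02 under cyclic loess.

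**Figure D1:**
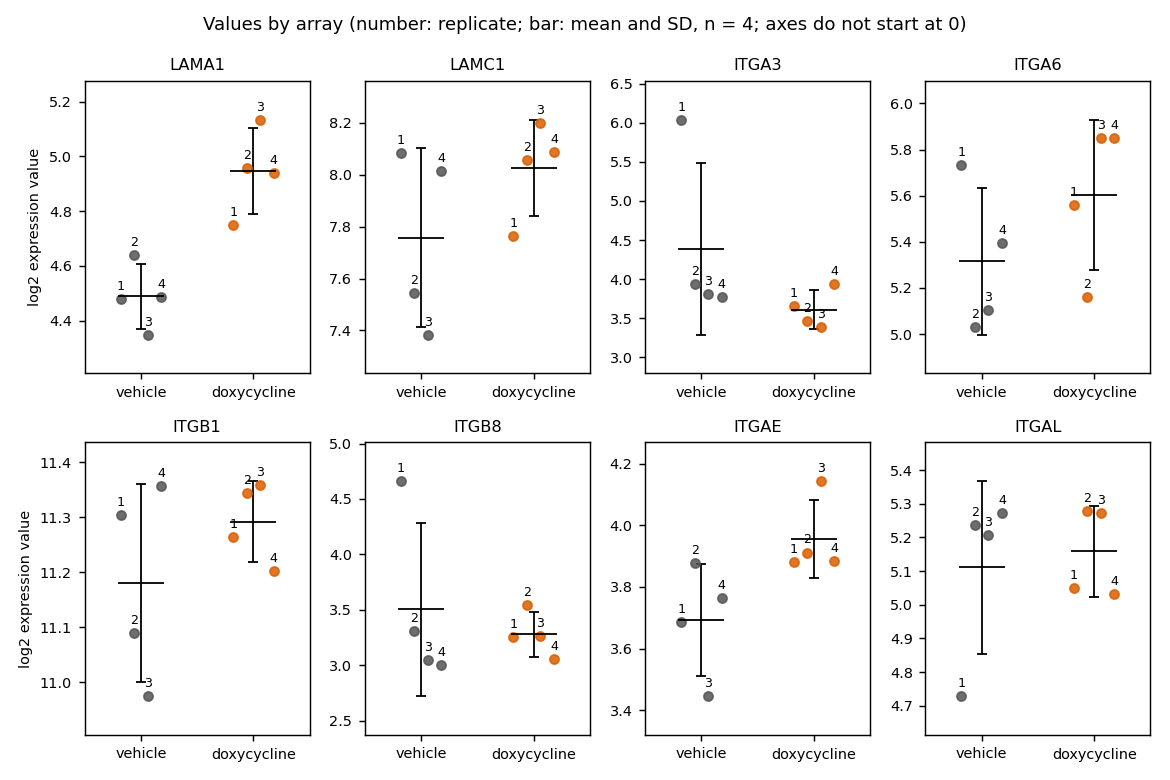
Log2 expression values (vertical axes, which do not start at 0) of 8 genes in the vehicle and doxycycline arrays, each point an array labelled with its replicate number, with the mean and SD (n = 4) as bars. LAMA1 and ITGAE show groups that do not overlap, and vehicle replicate 1 stands apart for ITGA3 at 6.04, ITGB8 at 4.66 and ITGAL at 4.73.

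Integrin receptors for laminin pair ITGA3, ITGA6 or ITGA7 with ITGB1, and ITGA6 also with ITGB4. ITGA3, the alpha subunit of a laminin receptor of epithelia and many tumour cells, was at 6.04, 3.94, 3.81 and 3.77 with vehicle and at 3.65, 3.47, 3.38 and 3.94 with doxycycline. Vehicle replicate 1 exceeded the average of the remaining 7 arrays, which lay together, by 2.33. The ITGA3 difference of -0.78 ± 0.41 (SE) had the largest size of any member, and without vehicle replicate 1 it was -0.23 ± 0.15 (SE). The excess of vehicle replicate 1 was over 1 log2 unit in ITGA3 and ITGB8, or 2 of the 33 members, and in 3.43% of all genes.

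ITGA6, a laminin receptor subunit of epithelial, endothelial and stem cells, was at 5.73, 5.03, 5.10 and 5.40 with vehicle and at 5.56, 5.16, 5.85 and 5.85 with doxycycline. The groups overlapped, and vehicle replicate 1 was again the highest of its group. The difference was 0.29 ± 0.19 (SE), and 0.43 ± 0.17 (SE) without vehicle replicate 1 (limma adjusted p = 0.962). Without doxycycline replicate 2 it was 0.44. Because Omomyc acts on the sites of MYC, the RefSeq promoter table (GRCh38.p14) was searched for the palindromic MYC E-box CACGTG, which reads the same on both strands, in the 250 bases before each start. The table held promoters for 22 of the 33 members, and ITGA6 alone among those 22 had the motif. Counted by promoter, the motif was present in 3.7% of the 27 member promoters and in 6.34% of all 35116 promoters. The stretch of 120 bases that holds it, on the plus strand at chr2:172427176-172427295, is printed with the motif in capitals. The motif begins 101 bases before the upstream ITGA6 start.
ITGA6: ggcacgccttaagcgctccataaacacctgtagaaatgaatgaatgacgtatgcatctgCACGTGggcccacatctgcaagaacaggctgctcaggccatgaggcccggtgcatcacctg
The match is a description of these letters and was not tested as a site.

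ITGA7, the laminin receptor subunit of skeletal and heart muscle, reached 6.31 in vehicle replicate 3, whereas the remaining 7 arrays ranged from 5.58 to 5.75. Its difference was -0.13 ± 0.16 (SE) and turned to 0.04 without vehicle replicate 3. ITGB4, the hemidesmosome subunit that pairs with ITGA6, lay between 3.95 and 4.32 in all 8 arrays.

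ITGB1, the beta subunit shared by the largest number of integrin pairs, was bright. It was at 11.30, 11.09, 10.98 and 11.36 with vehicle and at 11.26, 11.34, 11.36 and 11.20 with doxycycline. The doxycycline arrays lay inside the vehicle range apart from replicate 3, at the upper edge. The ITGB1 difference was 0.11 ± 0.13 (SE), with a 95% confidence interval from -0.16 to 0.39. It was 0.04 without vehicle replicate 3, 0.17 without vehicle replicate 4 and 0.06 under cyclic loess.

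The collagen receptors pair ITGA1, ITGA2, ITGA10 or ITGA11 with ITGB1, and ITGA1 was not among the named genes. ITGA2, a collagen receptor subunit of epithelium and platelets, was at 3.91, 3.43, 3.61 and 3.63 with vehicle and at 4.00, 4.14, 3.49 and 3.93 with doxycycline. Of the doxycycline arrays, 3 lay above all vehicle arrays and replicate 3 fell among them. The difference was 0.24 ± 0.16 (SE), with 0.38 without doxycycline replicate 3 and 0.16 without doxycycline replicate 2. ITGA10, a cartilage collagen receptor subunit, ranged from 5.70 to 6.41 with vehicle and from 5.47 to 6.23 with doxycycline, a difference of -0.18 ± 0.19 (SE) that was -0.05 without vehicle replicate 4, -0.31 without doxycycline replicate 2 and -0.29 without vehicle replicate 3. ITGA11, a fibroblast collagen receptor subunit, ranged from 4.25 to 4.73 and from 4.18 to 4.62, a difference of -0.17 ± 0.15 (SE) that was -0.26 without vehicle replicate 1 and -0.10 without vehicle replicate 2. The fibroblast and pericyte marker mean was 5.37 to 5.54 with vehicle and 5.50 to 5.60 with doxycycline.

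Receptors for the RGD sequence of fibronectin and vitronectin use ITGA5, ITGA8, ITGAV or ITGA2B. ITGAV was dim, at 4.03, 3.45, 3.54 and 3.29 with vehicle and at 3.77, 3.73, 3.57 and 3.48 with doxycycline. Its highest value was in vehicle replicate 1 and its lowest in vehicle replicate 4, so that the doxycycline arrays lay between the extremes of the vehicle arrays. The ITGAV difference was 0.06 ± 0.16 (SE), 0.21 without vehicle replicate 1 and -0.03 without vehicle replicate 4. ITGA5, the main fibronectin receptor subunit, also had its highest value in vehicle replicate 1, at 5.42, and lay between 4.83 and 5.26 in the other arrays. ITGA8, a subunit of kidney and smooth muscle, had its lowest value there, at 4.27, and lay between 4.50 and 5.05 elsewhere.

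Several beta subunits pair with ITGAV. ITGB3, the beta subunit associated with invasive melanoma, was at 5.79, 5.43, 5.59 and 5.96 with vehicle and at 5.56, 5.78, 5.64 and 5.06 with doxycycline. Doxycycline replicate 4 was the lowest of all arrays and the other 7 overlapped. The ITGB3 difference was -0.18 ± 0.17 (SE), with -0.03 without doxycycline replicate 4 and -0.09 without vehicle replicate 4. ITGA2B, which pairs with ITGB3 on platelets, was highest in vehicle replicate 3, at 6.90, and lowest in vehicle replicate 1, at 5.89. Its difference was 0.20 ± 0.21 (SE), 0.40 without vehicle replicate 3 and 0.06 without vehicle replicate 1. The megakaryocyte and platelet marker mean was also lowest in vehicle replicate 1, at 5.52, and highest in vehicle replicate 3, at 5.94. The lymphocyte and the Schwann cell and nerve marker means had the same lowest and highest arrays. Of the platelet markers, GP1BA and GP6 were highest in vehicle replicate 3. PF4 and TREML1 were highest in doxycycline replicate 1, and PPBP and GP9 in doxycycline replicate 2. The part of platelets in the ITGA2B values was not tested.

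ITGB8, a beta subunit that activates latent TGF-beta with ITGAV, was at 4.66, 3.31, 3.05 and 3.00 with vehicle and at 3.25, 3.55, 3.26 and 3.06 with doxycycline. Vehicle replicate 1 exceeded the average of the remaining 7 arrays by 1.45. The ITGB8 difference was -0.22 ± 0.30 (SE), and it turned to 0.16 ± 0.15 (SE) without that array. ITGB5, a vitronectin receptor subunit, lay between 5.88 and 6.28 in all arrays, and ITGB6, an epithelial subunit, between 3.40 and 3.65. ITGA9, which pairs with ITGB1 and binds tenascin and VCAM1, was at 6.44 in vehicle replicate 3 and between 6.07 and 6.30 elsewhere, a difference of 0.05 ± 0.13 (SE) that was 0.14 without vehicle replicate 3 and 0.014 without vehicle replicate 4.

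Leukocyte integrins serve homing, adhesion to vessel walls and contact between immune cells. All 8 had a difference above 0 with the deposited values, but ITGAM was below 0 when array medians were centred and under cyclic loess, and ITGAM and ITGAL were below 0 with array weights. Without vehicle replicate 1 there were 5 above 0 and 3 below 0 (ITGAL, ITGAM and ITGAX). The median difference was 0.08 with all arrays and 0.02 without vehicle replicate 1, against 0.02 and 0.00315 over all genes. Vehicle replicate 1 was the lowest of the 8 arrays for 5 of the 8 leukocyte integrins, and for 28.8% of all genes.

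ITGAL, the alpha subunit of LFA-1, which binds ICAM proteins, was at 4.73, 5.24, 5.21 and 5.27 with vehicle and at 5.05, 5.28, 5.27 and 5.03 with doxycycline. ITGAX, the dendritic cell subunit known as CD11c, was at 7.41, 7.78, 7.72 and 7.72 with vehicle and at 7.73, 7.73, 7.81 and 7.63 with doxycycline. In both genes vehicle replicate 1 was the low array and the other 7 lay together. ITGB2, the beta subunit that ITGAL, ITGAM, ITGAX and ITGAD share, was at 5.51, 5.57, 6.25 and 5.97 with vehicle and at 6.04, 5.81, 6.21 and 6.20 with doxycycline. Vehicle replicates 1 and 2 lay below the doxycycline range and replicate 3 above it. The ITGB2 difference was 0.24 ± 0.18 (SE), 0.13 without vehicle replicate 1 and 0.38 without vehicle replicate 3. ITGAM, the macrophage and granulocyte subunit known as CD11b, ranged from 5.02 to 5.74 and from 5.04 to 5.66 in the 2 groups. ITGAD, a macrophage subunit, ranged from 5.92 to 6.34 with vehicle and from 5.78 to 6.63 with doxycycline, a difference of 0.19 ± 0.18 (SE) that was 0.08 without doxycycline replicate 1 and 0.37 without doxycycline replicate 3. The mean of the general leukocyte markers was 5.33 to 5.56 with vehicle and 5.34 to 5.51 with doxycycline, and that of the myeloid markers 4.89 to 5.02 and 4.96 to 5.10.

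ITGAE, the subunit known as CD103, pairs with ITGB7 and binds E-cadherin on epithelium. It was at 3.69, 3.88, 3.45 and 3.76 with vehicle and at 3.88, 3.91, 4.14 and 3.88 with doxycycline. The groups did not overlap, but the gap between vehicle replicate 2 and doxycycline replicate 1 was 0.00497. The ITGAE difference was 0.26 ± 0.13 (SE), with a 95% confidence interval from -0.02 to 0.55 and a limma adjusted p of 0.987, and the gene was among the dimmest 25%. ITGB7, its beta partner, ranged from 6.08 to 6.67 with vehicle and from 6.18 to 6.62 with doxycycline. ITGA4, which pairs with ITGB7 or ITGB1 for homing to gut and inflamed vessels, lay between 6.72 and 7.08 in all arrays. The lymphocyte marker mean was 4.90 to 5.24 with vehicle and 5.07 to 5.13 with doxycycline.

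**Figure D2:**
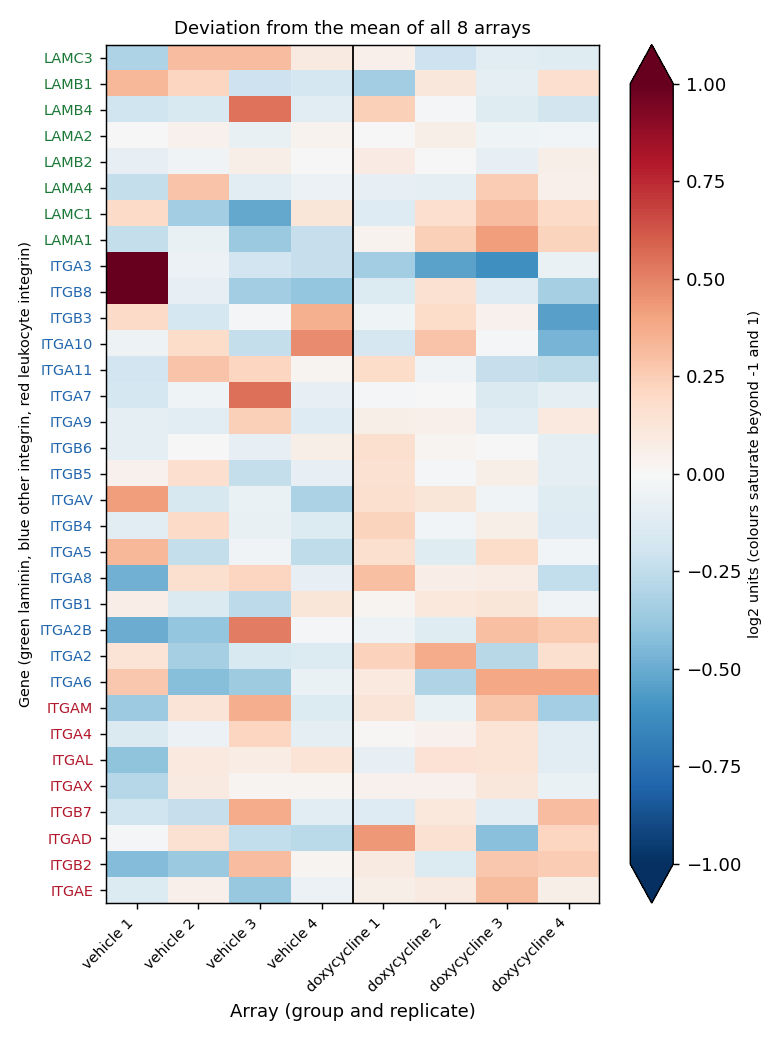
Deviation of each array (columns) from the mean of all 8 arrays for each of the 33 genes (rows), in log2 units on a colour scale that saturates beyond -1 and 1. ITGA3 and ITGB8 are darkest in vehicle replicate 1, and ITGAL, ITGB2, ITGAM and ITGA8 are among the low genes of that array.

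Single arrays set many of the extremes. Vehicle replicate 1 was the lowest array for 12 members and the highest for 5 (ITGA3, ITGB8, ITGAV, ITGA5 and LAMB1), against 28.8% and 15.2% of all genes. Vehicle replicate 3 was the highest array for 8 members (ITGA2B, ITGA4, ITGA7, ITGA9, ITGAM, ITGB2, ITGB7 and LAMB4), against 17.2% of all genes. Of the 3 measured Schwann cell and nerve markers, MBP was highest in vehicle replicate 3, at 8.14, while S100B and NGFR were not, and their part in these values was not tested. The spread of a member over the 8 arrays had a median of 0.70 from lowest to highest, against 0.63 for all genes.

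Partner subunits were then set side by side. Of the 24 known integrin pairs, 23 had both subunits measured, all but ITGA1 with ITGB1. Both differences were on the same side of 0 in 16 pairs and on opposite sides in 7. The 7 were ITGB1 with ITGA3, ITGA7, ITGA10 or ITGA11, ITGAV with ITGB3 or ITGB8, and ITGA2B with ITGB3. Many pairs share a subunit, so they are not separate observations. With 23 of the 33 members above 0, many subunits would share a side without being partners. Without vehicle replicate 1, ITGAL, ITGAM and ITGAX fell on the side opposite ITGB2, and ITGA8 on the side opposite ITGB1. ITGB8 then came to the same side as ITGAV.

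Genes that work with integrins and laminins were read from the same fit. Of 18 measured basement membrane partners, 0 passed (limma, adjusted p under 0.05), and 2 higher and 1 lower had an unadjusted p under 0.05, against 2.49% and 1.31% of all genes. COL4A5, a collagen IV chain, and SPARC, a collagen-binding matrix protein, had differences of 0.37 ± 0.14 (SE) and 0.33 ± 0.15 (SE). NID1, which links laminin to collagen IV, was at -0.55 ± 0.20 (SE), and -0.32 without vehicle replicate 1. AGRN, a basement membrane proteoglycan, was at -0.14 ± 0.14 (SE), and -0.05 without vehicle replicate 3. Of 40 measured genes of integrin adhesion and activation, 0 passed and 2 lower ones had an unadjusted p under 0.05. They were TNS3, a tensin that binds beta tails, at -0.40 ± 0.12 (SE), and ITGB3BP, a centromere protein that also binds ITGB3, at -0.56 ± 0.24 (SE) and -0.29 without vehicle replicate 1. The small GTPase RAP1A, which activates integrins, was at 0.35 ± 0.17 (SE), with 0.21 without doxycycline replicate 1. CD151, a tetraspanin partner of laminin receptors, was at 0.24 ± 0.16 (SE), with 0.11 without vehicle replicate 2.

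Of 13 measured laminin receptors outside the integrin family, with their partners, 0 passed and 1 had an unadjusted limma p under 0.05, against 3.8% of all genes. It was SGCE, a sarcoglycan of the dystrophin complex, at 0.45 ± 0.15 (SE). DMD, which encodes dystrophin, was at 0.18 ± 0.16 (SE), with 0.31 when doxycycline replicate 2 was left out and 0.09 when vehicle replicate 3 was. The syndecans SDC2 and SDC1 were at -0.24 ± 0.19 (SE) and -0.20 ± 0.17 (SE), and with single arrays left out they ran from -0.42 (vehicle replicate 2) to -0.11 (vehicle replicate 4) and from -0.33 (doxycycline replicate 2) to -0.10 (doxycycline replicate 1). Of 35 measured integrin ligands, 0 passed and 1 had an unadjusted limma p under 0.05, against 3.8% of all genes. That ligand was CCN1, a matricellular protein bound by several integrins, at -0.68 ± 0.16 (SE). THBS1, a thrombospondin, was at -0.20 ± 0.16 (SE), with -0.11 without doxycycline replicate 4 and -0.33 without doxycycline replicate 2. SPP1, the RGD protein osteopontin, was at 0.41 ± 0.20 (SE), with 0.20 without vehicle replicate 3, and EMILIN1, an elastic fibre protein, was at 0.25 ± 0.15 (SE), with 0.15 without doxycycline replicate 1. The medians of the 4 lists were 0.04, 0.02, -0.08 and -6.13e-05 in the order given, against 0.02 over all genes. Without vehicle replicate 1 they were -0.08, 0.04, -0.05 and 0.01, so that the basement membrane and ligand medians turned sign, against 0.00315 over all genes.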

How the data were processed

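Per the submitters' processing notes the authors used RMA, and the deposited table holds its output, a log2 value for every probe set on every array. Neither the version of RMA nor a genome build is named there (not given in the sources used here). No scanner files were used, signal over background was therefore not assessed, and the number of arrays limits the precision. RMA gives all arrays similar distributions, so a change in total human RNA could be removed or could appear as changes of single genes. Which of these applied was not tested. Of 18565 probe sets, 17509 had 1 gene symbol, 0 had several and 1056 had none and were left out. Where a gene had several probe sets the brightest on average was kept, which left 17491 genes. How far the human probes detect mouse transcripts was not measured.

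Groups came from the sample labels. Doxycycline minus vehicle was fitted with limma 3.58.1 in R 4.3.3 (lmFit and eBayes) on all 17491 genes as a two-sided test with no covariate, adjusted by Benjamini-Hochberg, at a threshold of 0.05, and the script was tested on simulated data. Software also included the data.table package (version 1.17.8), pandas 2.3.3 and matplotlib 3.10.9. The members and the lists were chosen with earlier results of these data known, so lists are described by counts and medians with no list test. Every member is named with its levels. Differences are named for up to 8 members per direction with the smallest p, for ITGB1, ITGAV, ITGB3, ITGB2, LAMB1 and LAMC1, and for the member with the largest difference of each role. Up to 2 genes per direction are named from each pathway list. The marker genes MLANA, PMEL, S100B, MITF, TYR, TYRP1 and MBP were named after their values were seen. As alternatives, the fit was repeated with a block for replicate number, after median centring, quantile or cyclic loess scaling, on genes left after dropping the dimmest 25% or 50%, on means of probe sets, with a trended robust variance, with array weights, leaving out each array, and at an adjusted p of 0.1.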

Additional observations from a re-analysis of the deposited data

Results flagged for a closer look

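In 98 groups of 4 arrays, 7 values lay far enough from the other 3 to exceed the 95% critical value of Dixon's ratio; chance gives about 1 in 20 groups. Of these, 6 came from the 66 groups of the members and 1 from the 32 groups of the named pathway genes. Vehicle replicate 1 gave 4 of the 7. It was high for ITGA3 (6.04, against 3.77 to 3.94 in the other vehicle arrays) and for NID1 (5.56, against 4.62 to 4.72), and low for ITGAL (4.73, against 5.21 to 5.27) and ITGAX (7.41, against 7.72 to 7.78). Vehicle replicate 3 was high for ITGA9 (6.44, against 6.07 to 6.10) and LAMB4 (6.04, against 5.30 to 5.40). Doxycycline replicate 3 was high for ITGAE (4.14, against 3.88 to 3.91).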

How the results depend on the processing

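Across the alternatives, the number of members called by limma at an adjusted p of 0.05, or of 0.1 with the main settings, was 0 in each, as was the number of all genes called, and the smallest adjusted p of any member was 0.808. Of 35 named differences (19 members and 16 pathway genes), 31 kept their sign in each alternative that could be computed. Most of these were picked for a small p in the same fit, which favours a kept sign. Among all 33 members, ITGA8, ITGAL, ITGAM, ITGAX, ITGB8, LAMA4 and LAMB1 changed sign without vehicle replicate 1. In other settings LAMA2, LAMB2, LAMB4, ITGB5 and ITGB7 were among those that did. ITGB8 turned to 0.013 with array weights. With single arrays left out, ITGB8 ran from -0.39 to 0.16, ITGA7 from -0.20 to 0.036, ITGAV from -0.034 to 0.21 and LAMB1 from -0.16 to 0.022. The median difference ran from -0.000323 to 0.04 for laminins, from 0.01 to 0.09 for the other integrins outside leukocytes and from 0.02 to 0.13 for leukocyte integrins. The labels do not say whether same-numbered arrays were paired. Deviations of same-numbered arrays correlated at -0.05 to 0.15 across genes, and 4 of the 8 arrays correlated best with their own number. These values do not settle whether the numbers pair the arrays. With the replicate number as a block, 0 members and 0 genes were called. Without the dimmest 25% and 50% of genes, 6 and 12 members left the fit. The 6 were ITGA2, ITGAE, ITGAV, ITGB6, ITGB8 and LAMB1, and the 12 also held LAMA1 and ITGA3. Of the named pathway genes, ITGB3BP and DMD were among the dimmest 25%. The depth of each value is set by the 4 arrays per group.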
